A study of Mus musculus with 6 samples.

Results

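The nuclear pore and transport receptor genes are the 50 genes, of 53715 in the deposited tables, that encode the proteins through which cargo enters and leaves the nucleus. They were chosen by name only, as every gene named for a nucleoporin (*Nup*), an importin alpha or beta (*Kpna*, *Kpnb*), a further importin (*Ipo*), an exportin (*Xpo*, *Xpot*) or a transportin (*Tnpo*), together with *Cse1l*, *Ran*, *Rangap1*, *Ranbp2*, *Tpr*, *Pom121* and *Rcc1*. Total RNA was sequenced from osteoblasts grown from the calvarial bone of newborn C57BL/6J mice and kept in osteogenic medium for 7 days, in 3 Fam102a KO and 3 Wild-type libraries. Fam102a KO cells (Fam102aΔ/Δ) came from mice that lack exons 2 and 3 of *Fam102a* in the whole body, made by crossing *Fam102a*-floxed mice with mice carrying *Actb-Cre*, which is active in nearly all cells, and Wild-type cells (Fam102a+/+) carry the intact gene. The labels do not say how many animals gave each culture, so the p-values measure the spread between these libraries, which may be in part technical. The study asked how loss of Fam102a affects the osteoblast, and turned from this RNA to Kpna2 and the import of transcription factors such as Runx2 into the nucleus.

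The nuclear pore is a channel built from rings of nucleoporins. The Y complex and the inner ring form its scaffold, a membrane ring anchors it, nucleoporins with phenylalanine-glycine repeats fill the central channel, and filaments reach into the cytoplasm and a basket into the nucleus. An importin alpha reads the nuclear localization signal of a cargo protein and is carried through the pore by importin beta 1, while other members of the importin beta family bind their cargo directly. The small GTPase Ran sets the direction, because its exchange factor Rcc1 sits on chromatin and its activator Rangap1 sits at the cytoplasmic face. Exportins bring protein and RNA out of the nucleus, and Cse1l returns importin alpha to the cytoplasm.

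The sequences below are shown because they decide how well *Kpna2* can be read in these data. Transcripts annotated in GENCODE M21 (GRCm38) were cut into windows of 50 bases, and 62.6% of those of *Kpna2* had a copy in 1 or more of 13 genes, 61.6% in *Gm10184* on chromosome 17 alone. The first line is a stretch of 60 bases, positions 61 to 120 of the coding sequence of the transcript *Kpna2*-201 on chromosome 11, and the other lines are the best match in 3 of these genes. Capitals mark the bases that differ from *Kpna2*.
Kpna2: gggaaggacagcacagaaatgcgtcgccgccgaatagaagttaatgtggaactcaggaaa
Gm10184: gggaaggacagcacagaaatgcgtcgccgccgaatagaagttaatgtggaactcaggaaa
Gm10259: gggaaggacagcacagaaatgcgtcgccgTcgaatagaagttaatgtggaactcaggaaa
Gm12919: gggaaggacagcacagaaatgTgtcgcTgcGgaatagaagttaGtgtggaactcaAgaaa
*Gm10184*, annotated as protein coding, had 0 mismatches in this stretch, and the processed pseudogenes *Gm10259* on chromosome 3 and *Gm12919* on chromosome 4 had 1 and 5. The stretch was chosen for this, as the one with most mismatches in the pseudogenes among those tried where *Gm10184* had 0. A read from this stretch of *Kpna2* therefore has an equal match in *Gm10184*. The other genes of the family share far less, with 0 to 0.85% of the windows of *Kpna1*, *Kpna3*, *Kpna4*, *Kpna6* and *Kpna7* found elsewhere.

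The promoters were read to see which short motifs the genes share, a feature that the choice by name did not use. RefSeq windows (GRCm38.p6) were at hand for 40 of the 50 genes and for 27025 genes in all, and the 250 bases before each start were searched on both strands, with a motif counted where any window of a gene held it. GGGCGG, the GC box bound by Sp factors, was found in 65.0% of the 40 and in 35.4% of all genes. The NRF1 motif, spelled GCGCA, any base and GCGC, was found in 6 of the 40, which is 15% against 4.23% of all genes, and these were *Ipo9*, *Nup107*, *Nup50*, *Nup62*, *Ran* and *Xpo5*. CCAAT was found in 47.5% against 37.5%, TTTGAA (the letters of the cell cycle element CHR) in 25.0% against 18.3%, and TATAAA in 12.5% against 14.3%. CCGGAAG (ETS) was found in 15% against 7.83%, TTTNNCGC (E2F) in 5.0% against 4.94%, and ATGGCGGC (YY1) in 2.5% against 1.19%. No motif contains another, and a match is a description of the letters and not a site. The windows (the first of 2 for *Nup93*) of *Kpna2*, the importin alpha of the study, of *Ran*, which holds the NRF1 letters, and of *Nup93*, the gene with the smallest p below, are given 5′ to 3′ along the gene, with the letters of the NRF1, CCAAT, CHR, GC box and TATAAA motifs in capitals on either strand.
Kpna2, chr11:106999526-106999775, minus strand: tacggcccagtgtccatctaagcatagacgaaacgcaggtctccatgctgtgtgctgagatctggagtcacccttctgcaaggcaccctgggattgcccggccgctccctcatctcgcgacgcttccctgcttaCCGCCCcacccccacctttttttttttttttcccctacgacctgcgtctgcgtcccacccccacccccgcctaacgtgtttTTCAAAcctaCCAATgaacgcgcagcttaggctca
Ran, chr5:129019906-129020155, plus strand: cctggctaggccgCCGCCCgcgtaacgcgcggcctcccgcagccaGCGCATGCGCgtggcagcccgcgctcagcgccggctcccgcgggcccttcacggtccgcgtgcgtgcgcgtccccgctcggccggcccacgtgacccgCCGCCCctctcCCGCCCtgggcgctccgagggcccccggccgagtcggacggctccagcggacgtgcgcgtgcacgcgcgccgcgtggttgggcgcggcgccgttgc
Nup93, chr8:94214314-94214563, plus strand: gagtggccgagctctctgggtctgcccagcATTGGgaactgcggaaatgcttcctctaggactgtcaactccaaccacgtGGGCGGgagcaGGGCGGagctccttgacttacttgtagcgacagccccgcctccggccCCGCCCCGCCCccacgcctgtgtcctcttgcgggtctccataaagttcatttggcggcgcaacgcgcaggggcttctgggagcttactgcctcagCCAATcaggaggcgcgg
In these windows *Kpna2* and *Nup93* hold CCAAT and GC boxes without the NRF1 letters, and *Ran* holds the NRF1 letters and GC boxes without CCAAT. The second window of *Nup93*, at chr8:94266597-94266846 on the plus strand, holds CCAAT and TATAAA.

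Gene reads, which are exon and intron reads together, totalled 12934473 to 21210150 in the Fam102a KO libraries and 12212169 to 19985762 in the Wild-type libraries, so that 1 read was worth 0.0471 to 0.0819 CPM. The 50 genes took 0.284 to 0.371% of them in Fam102a KO and 0.259 to 0.293% in Wild-type. Replicates 2 and 3 of both genotypes carry the name of 1 sequencing run, which replicate 1 of either genotype lacks. *Fam102a* had 185, 260 and 257 gene reads in the Fam102a KO libraries, against 170, 249 and 244 in the Wild-type libraries. Its exon reads numbered 123, 174 and 157 in Fam102a KO, against 124, 206 and 207 in Wild-type. These counts are not scaled to library size. Since they include the exons that are left, they do not check the genotype. *Col1a1*, the main collagen of osteoblasts, stood at 6567 to 7527 CPM (gene reads scaled to library size with TMM factors) in Fam102a KO and 5737 to 8629 CPM in Wild-type, while *Bglap*, a marker of mature osteoblasts, had no read in 4 of the 6 libraries. Of the 7 osteoblast markers, 6 could be tested, and 3 were lower in Fam102a KO at an unadjusted p under 0.05 in edgeR (*Alpl*, *Sp7* and *Runx2*). Their adjusted p values from edgeR were 0.161, 0.193 and 0.603, so none passed an adjusted 0.05. *Ibsp* and *Spp1* had positive log2 fold changes and *Col1a1* a slightly negative one, none past the unadjusted threshold. *Ibsp* was high in Fam102a KO replicate 2 only. For *Runx2*, the paper reports unchanged expression by quantitative PCR. Macrophage markers summed to 69.7 to 234 CPM in Fam102a KO and 126 to 394 CPM in Wild-type, and their part in the results below was not tested.

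None of the 50 genes was called different between Fam102a KO and Wild-type osteoblasts. All 50 passed the filter on low reads, *Kpna7* and *Nup210* only with their intron reads counted, and the quasi-likelihood test of edgeR, adjusted by Benjamini-Hochberg over 16391 genes, gave 0 genes higher and 0 lower at the 0.05 level (smallest adjusted p = 0.797, for *Nup93*), beside 0.0183% and 0.0305% of all genes tested. At an unadjusted p under 0.05 edgeR placed 1 gene higher (*Nup93*) and 0 lower, which is 2% and 0% of the 50, beside 2.92% and 3.12% of all genes. DESeq2 placed 0 of the 50 past an adjusted p of 0.05 (beside 0.299% of all genes higher and 0.44% lower) and 0 past an unadjusted one (beside 2.68% and 2.61%). On log2(RPKM + 0.1), limma placed 0 past the adjusted threshold (0% of all genes) and 2 higher past the unadjusted one (*Nup93* and *Rcc1*, 4% of the 50, beside 6.39% of all genes higher and 1.6% lower). The share of genes past the unadjusted threshold was thus not above that of all genes in any of these tests.

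For most of these genes the libraries also limited how large a difference could be. In 44 of the 50 the 95% interval of the log2 fold change lay inside a 1.5-fold change in either direction, and in 47 it lay inside a 2-fold change. The 6 genes with wider intervals were *Kpna1*, *Kpna7*, *Ipo7*, *Ipo8*, *Nup43* and *Nup210*. With exon reads alone, 48 genes could be tested and 45 lay inside 1.5-fold, the exceptions being *Rcc1*, *Nup43* and *Nup210l*. The log2 fold change was under 0.2 in size in 45 of the 50. The spread between libraries was small as well, with a median coefficient of variation of 9.39% over the 50 genes in Fam102a KO and 6.80% in Wild-type, beside 16.1% in Fam102a KO and 14.1% in Wild-type over all genes tested. This coefficient depends on the number of reads, for which the 50 genes and all genes were not matched.

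The log2 fold changes were above 0 in 32 of the 50 genes and below 0 in 18, with a median of 0.03, beside 49.8% above 0 and a median of −0.0009 over all genes. Without Fam102a KO replicate 1, 25 of the 50 were above 0, beside 49.4% of all genes. The sign of so small a value also depended on the scale, and the deposited RPKM (exon reads scaled to exon length and to the library's gene reads) ran higher in Fam102a KO for most of the genome. On log2(RPKM + 0.1) the median of all genes was 0.11 higher in Fam102a KO and 70.0% of all genes were above 0, and 48 of the 50 genes were above 0, with a median of 0.16. The TMM factors, which take this shift out, were 1.08, 0.957 and 1.11 in Fam102a KO and 0.967, 0.931 and 0.968 in Wild-type. Log2 fold changes below are on the TMM scale, and levels that compare genes are in RPKM.

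**Figure D1:**
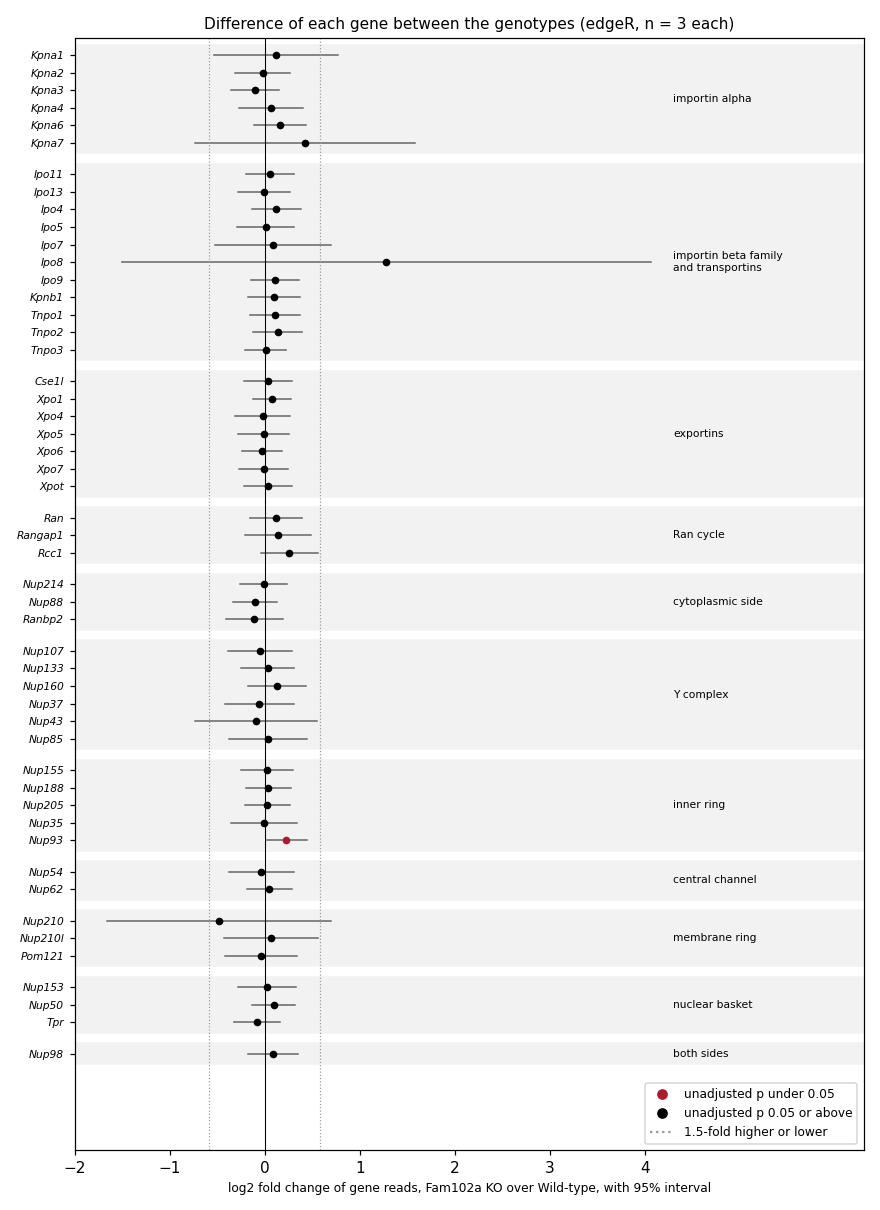
The log2 fold change of gene reads, Fam102a KO over Wild-type, of each of the 50 genes (points) with its 95% interval from edgeR (lines), grouped by role. The dotted lines mark 1.5-fold, inside which 44 of the 50 intervals lie, and *Nup93* (red) is the gene at an unadjusted p under 0.05.

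The levels of the genes ranged widely by role. Transport receptors and *Ran* led, with *Tnpo2* (transportin 2, which imports RNA-binding proteins) at a mean of 63.9 RPKM over the 6 libraries, *Ran* at 46.8, *Kpnb1* (importin beta 1) at 38.0, *Ipo4* at 21.6 and *Kpna2* at 19.3. Scaffold nucleoporins were lower, with the 6 genes of the Y complex at 1.48 to 4.11 RPKM and the 5 of the inner ring at 1.72 to 7.37. Least abundant were *Kpna7*, an importin alpha of oocytes and early embryos, at 0.0169 RPKM and *Nup210* at 0.0409.

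**Figure D2:**
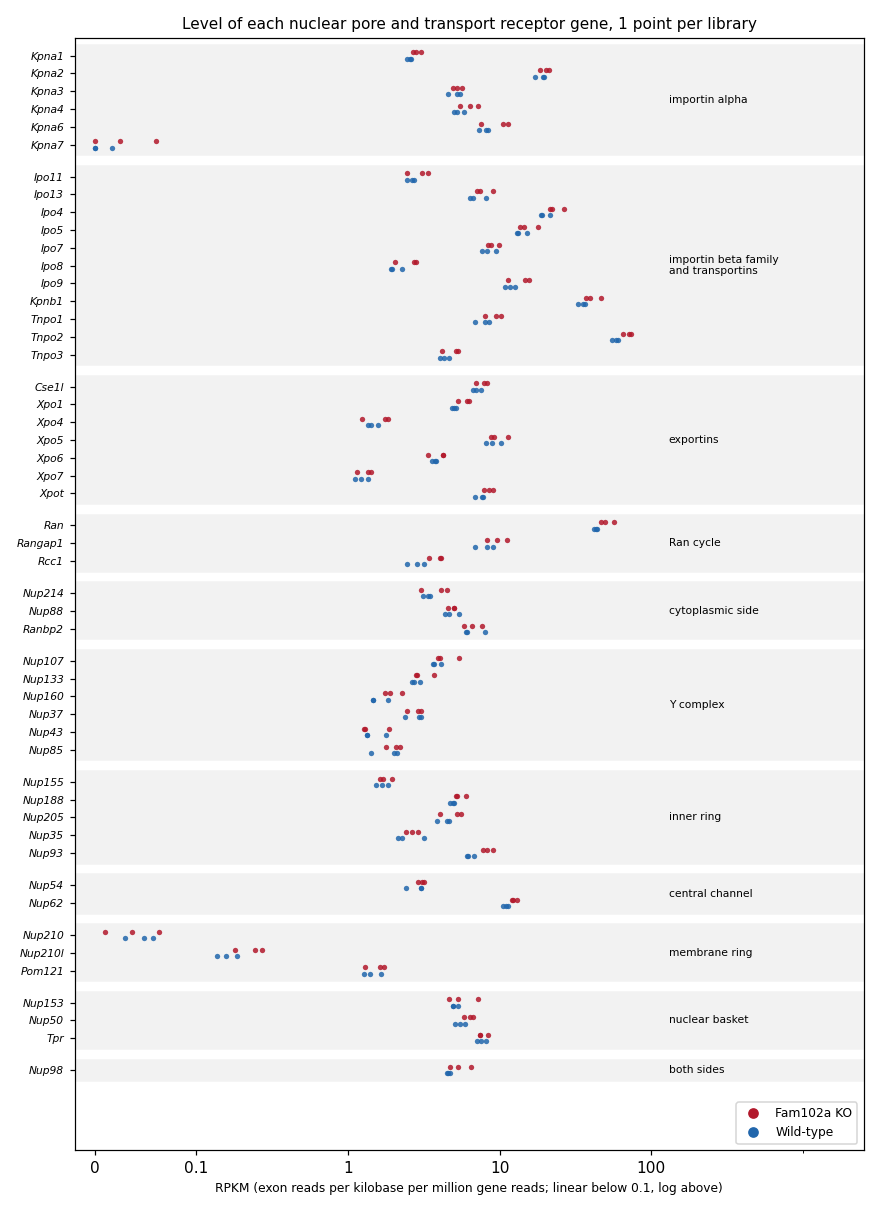
RPKM of each of the 50 genes in each library (Fam102a KO red, above, and Wild-type blue, below), grouped by role, on an axis that is linear below 0.1 and logarithmic above. *Tnpo2*, *Ran* and *Kpnb1* lie highest and *Kpna7* and *Nup210* lowest in both genotypes.

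This order depended on how reads that match several places were counted. Of the exon reads of *Nup62*, 4.61% were placed uniquely, and the share was 10.7% for *Kpna2*, 16.4% for *Tnpo2*, 23.9% for *Nup35*, 42.9% for *Ipo4*, 45.4% for *Nup43* and 47.2% for *Ipo7*, while 29 of the 50 genes had 95% or more. When RPKM were computed from uniquely placed exon reads, *Kpnb1* led with 37.0, followed by *Ran* with 25.2 and *Ipo5* (importin 5, a carrier of ribosomal proteins and histones) with 14.2. *Tnpo2* moved to rank 5, from rank 1 of the 50, *Kpna2* to 36, from 5, and *Nup62* to 47, from 8. Unique reads understate a gene that has copies, and total reads may hold reads of the copies. For *Ipo4*, *Gm49378* shares 51.6% of the 50-base windows, and for *Nup35*, *Gm4353* shares 36.8%. For *Nup62*, *Tnpo2*, *Ipo7* and *Nup43*, 1.63, 7.17, 1.0 and 0% of the windows occur in other annotated genes. This is far less than the share of their exon reads not placed uniquely. For *Kpna2* and *Nup35* the windows found in any other annotated gene, 62.6 and 39.2%, also fell short of that share. Where else the reads of these genes were placed is not known here.

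The importin alpha family holds the adaptors that read classical nuclear localization signals, and its most abundant member by RPKM was *Kpna2* (importin alpha 1, ENSMUSG00000018362, chromosome 11 of mm10 from 106988629 to 106999541). *Kpna2* had 20.1, 21.3 and 18.4 RPKM in the Fam102a KO libraries, against 19.4, 17.1 and 19.6 RPKM in the Wild-type libraries. The genotypes overlapped. In gene reads the log2 fold change was −0.02 (standard error 0.126, unadjusted p = 0.854 and adjusted p = 1.00 from edgeR), with a 95% interval from −0.31 to 0.26, that is 0.807 to 1.2 times Wild-type. With uniquely placed exon reads, of which *Kpna2* had 87, 123 and 86 in Fam102a KO and 90, 85 and 133 in Wild-type, its log2 fold change was −0.18 with a standard error of 0.226 (adjusted p = 0.981, edgeR), and the interval was wider, from −0.68 to 0.33. On the RPKM scale it was 0.09, so its sign changed with the scaling. *Kpna2-ps*, on chromosome 17, had 0 reads in all 6 libraries, which allows up to 3 reads in each, and *Gm10184* had 0 reads in each library but Wild-type replicate 2, where it had 22.

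*Kpna6* (importin alpha 7) was next in RPKM, with 10.5, 7.54 and 11.4 in Fam102a KO, against 8.13, 7.34 and 8.34 in Wild-type. *Kpna4* (importin alpha 3) had 7.24, 5.45 and 6.39 RPKM in Fam102a KO, against 5.28, 5.0 and 5.80 in Wild-type, and *Kpna3* (importin alpha 4) had 5.63, 4.91 and 5.22 in Fam102a KO, against 5.51, 4.58 and 5.20 in Wild-type. *Kpna1* (importin alpha 5) stood at 2.83 ± 0.174 RPKM in Fam102a KO and 2.54 ± 0.0714 RPKM in Wild-type (SD, n = 3 each). In either genotype the libraries of *Kpna4* and *Kpna3* overlapped, and those of the other neighbours in this order did not. *Kpna7* had 1, 4 and 0 exon reads in Fam102a KO and 0, 1 and 0 in Wild-type, at the limit of what this depth can show.

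The place of *Kpna2* at the head of the family rested on reads that match more than 1 place. Its RPKM was 1.91, 2.82 and 1.61 times that of *Kpna6* in the Fam102a KO libraries, against 2.38, 2.33 and 2.35 times in the Wild-type libraries. The mean ratio was 2.11 ± 0.631 in Fam102a KO and 2.35 ± 0.0288 in Wild-type (SD, n = 3 each), a difference within the spread of the Fam102a KO libraries (2-sided exact permutation test, p = 0.6, where 0.1 is the smallest p that 3 against 3 allow). With uniquely placed exon reads the same ratio was 0.224, 0.271 and 0.157 in Fam102a KO, against 0.318, 0.214 and 0.279 in Wild-type (2-sided exact permutation test, p = 0.4). *Kpna6*, *Kpna4*, *Kpna3* and *Kpna1*, of whose exon reads 99.0 to 99.3% were unique, then stood above *Kpna2*, although *Kpna1* and *Kpna2* overlapped in Wild-type. In the log2 fold change none of the 6 genes passed an unadjusted p of 0.05 in edgeR. *Kpna6* had a log2 fold change of 0.16 (standard error 0.120, unadjusted p = 0.223 from edgeR), *Kpna3* one of −0.10 (standard error 0.112, unadjusted p = 0.391) and *Kpna4* one of 0.06 (standard error 0.149, unadjusted p = 0.691).

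**Figure D3:**
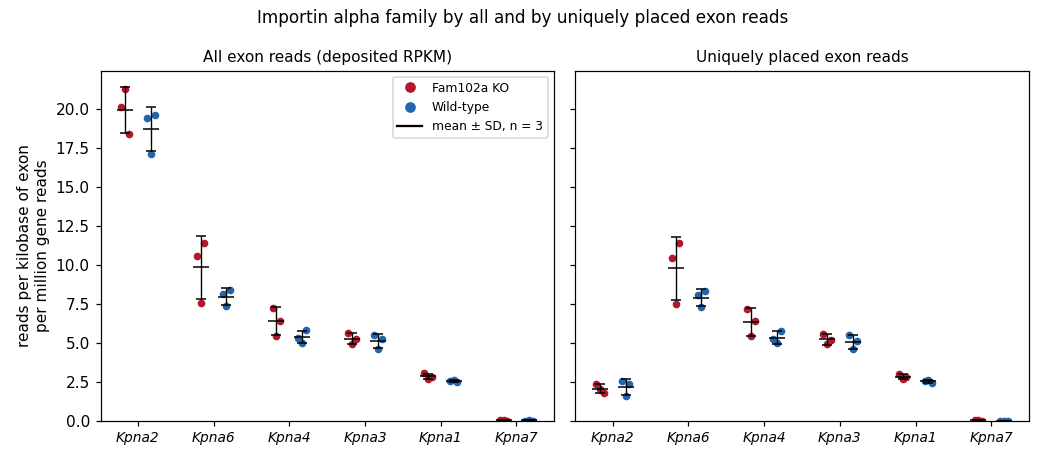
RPKM of the 6 importin alpha genes in each library, with the mean ± SD of 3 libraries, from all exon reads (left panel) and from uniquely placed exon reads (right panel). *Kpna2* lies at 18.4 to 21.3 in Fam102a KO and 17.1 to 19.6 in Wild-type on the left, and at 1.78 to 2.34 in Fam102a KO and 1.56 to 2.57 in Wild-type on the right.

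Of the 11 genes of the importin beta family and the transportins, 10 had a log2 fold change above 0 and 1 below, with a median of 0.09, and none passed an unadjusted p of 0.05 in edgeR. *Kpnb1*, which carries importin alpha and its cargo through the pore, had 46.8, 37.0 and 39.2 RPKM in Fam102a KO, against 36.4, 32.9 and 35.7 RPKM in Wild-type, and these values do not overlap. In TMM-scaled CPM they did, at 294, 264 and 238 in Fam102a KO against 256, 239 and 249 in Wild-type, with a log2 fold change of 0.09 (standard error 0.121, unadjusted p = 0.454 from edgeR). *Tnpo2* had 449, 442 and 417 CPM in Fam102a KO, against 404, 391 and 397 CPM in Wild-type, so that on all gene reads every Fam102a KO library was above every Wild-type library. Its log2 fold change was 0.14 (standard error 0.113, unadjusted p = 0.261 from edgeR), with a 95% interval from −0.12 to 0.39. With unique gene reads it was 0.0009 (standard error 0.108, unadjusted p = 0.994 from edgeR) and with unique exon reads −0.02 (standard error 0.104, unadjusted p = 0.875 from edgeR), and the RPKM from unique exon reads, at 10.2 to 11.2 in Fam102a KO and 9.28 to 11.2 in Wild-type, overlapped. *Tnpo1*, its closest relative, stood at 115 ± 6.87 CPM in Fam102a KO and 107 ± 11.1 CPM in Wild-type (SD, n = 3 each). *Ipo5*, *Ipo9*, *Ipo13*, *Ipo11*, *Ipo4* and *Tnpo3*, which import histones, ribosomal proteins and splicing factors among other cargo, had log2 fold changes from −0.01 to 0.12.

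*Ipo8*, an importin of Smad proteins, had the largest log2 fold change of all 50 genes and the widest interval. It had 5328, 1009 and 777 gene reads in the Fam102a KO libraries, against 1179, 997 and 755 in the Wild-type libraries. Fam102a KO replicate 1 was far above the other 5 libraries, which had 755 to 1179 reads. In CPM the values were 383, 49.8 and 41.7 in Fam102a KO, against 100, 56.6 and 39.1 in Wild-type, so replicate 1 was the highest in both genotypes. The log2 fold change was 1.28 (standard error 1.06, unadjusted p = 0.285 from edgeR), and without Fam102a KO replicate 1 it was −0.51. The excess lay in the introns, with 4943, 548 and 289 intron reads in Fam102a KO, against 885, 608 and 339 in Wild-type, of which 98.9% were placed uniquely. The exon reads numbered 385, 461 and 488 in Fam102a KO, against 294, 389 and 416 in Wild-type, and gave a log2 fold change of 0.16 (standard error 0.124, unadjusted p = 0.217 from edgeR).

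Introns held more than 50% of the gene reads in 7 of the 50 genes (*Kpna1*, *Kpna4*, *Kpna7*, *Ipo7*, *Ipo8*, *Nup210* and *Nup210l*), while the median over the 50 was 13.1%. For *Kpna4*, 8.88% of the intron reads were placed uniquely, and for *Ipo7* 0%, and where else these reads were placed is not known here. *Ipo7* lies within the span of *1600010M07Rik* on the opposite strand. That gene had 1869, 2772 and 1026 gene reads in Fam102a KO, against 1485, 2743 and 3127 in Wild-type. The intron reads of *Ipo7* numbered 681, 1501 and 2911 in Fam102a KO, against 1191, 828 and 1911 in Wild-type, with overlap between the genotypes. *Kpna1* had 938, 736 and 501 intron reads in Fam102a KO, against 673, 524 and 571 in Wild-type, of which 9.05% were placed uniquely. The unique intron reads numbered 38, 71 and 51 in Fam102a KO, against 56, 85 and 56 in Wild-type. These counts are not scaled to library size, and Fam102a KO replicate 1 was not the highest library in them. *Gm15564*, whose span on the opposite strand reaches into the start of *Kpna1*, had 1821, 199 and 142 gene reads in Fam102a KO, against 400, 220 and 83 in Wild-type, so replicate 1 was the highest in both genotypes, as for *Ipo8*. The sources used here do not say whether the counting used strand, and the part of such overlapping reads in the values of *Kpna1* and *Ipo7* was not tested. With exon reads, *Kpna1*, *Kpna4* and *Ipo7* had log2 fold changes of 0.03, 0.11 and −0.04, each smaller than or close to its standard error (0.113, 0.107 and 0.126).

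**Figure D4:**
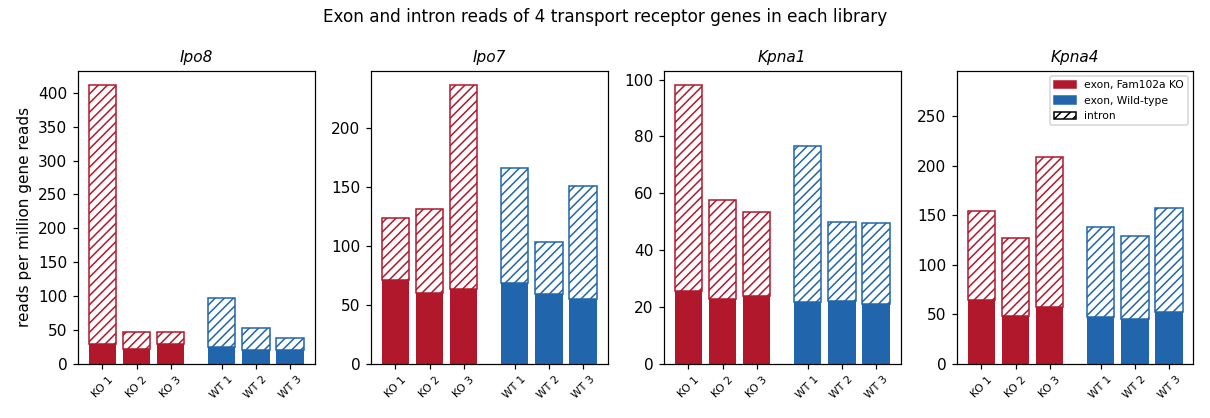
Exon reads (filled) and intron reads (hatched), scaled to the gene reads of the library, of *Ipo8*, *Ipo7*, *Kpna1* and *Kpna4* in each library, Fam102a KO (red) left and Wild-type (blue) right, each panel on its own scale from 0. The exon parts vary less between the libraries than the intron parts, and the intron part of *Ipo8* stands out in Fam102a KO replicate 1.

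The 50 genes together had 22.8, 15.5 and 19% of their gene reads in introns in the Fam102a KO libraries, against 19, 15.5 and 16.0% in the Wild-type libraries. The same share over all genes was 45.8 to 53.2% in Fam102a KO and 52.2 to 54.5% in Wild-type, so the transport genes were read mostly through exons. Without *Ipo8* the share was 14.1, 14.8 and 18.8% in Fam102a KO, against 17.1, 14.5 and 15.6% in Wild-type. The summed level was 3449, 2970 and 2942 CPM in Fam102a KO, against 3030, 2785 and 2874 CPM in Wild-type, and without *Ipo8* it was 3066, 2920 and 2900 CPM in Fam102a KO, against 2930, 2728 and 2835 CPM in Wild-type. The genotypes overlapped in both sums, while within each of the 3 replicate numbers the Fam102a KO library had the higher sum, with and without *Ipo8*.

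The 7 exportins differed little between the genotypes, with log2 fold changes from −0.03 to 0.07 (3 above 0 and 4 below), 95% intervals inside 1.5-fold for all 7, and none at an unadjusted p under 0.05 in edgeR. *Xpo5*, which exports precursors of microRNAs, was the most abundant, with 9.74 ± 1.44 RPKM in Fam102a KO and 9.09 ± 1.08 RPKM in Wild-type (SD, n = 3 each). *Xpo1*, the main exporter of proteins with a nuclear export signal, had 46.5, 46.2 and 45.9 CPM in Fam102a KO, against 44.0, 44.5 and 43.1 CPM in Wild-type. These libraries did not overlap, but the difference was small, with a log2 fold change of 0.07 (standard error 0.090, unadjusted p = 0.430 from edgeR). *Cse1l*, which returns importin alpha to the cytoplasm, stood at 43.6 ± 5.06 CPM in Fam102a KO and 42.6 ± 1.20 CPM in Wild-type, and *Xpot*, the exporter of transfer RNA, at 54.5 ± 6.26 CPM in Fam102a KO and 53.3 ± 1.94 CPM in Wild-type (SD, n = 3 each).

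The 3 genes of the Ran cycle all had log2 fold changes above 0 (0.12 for *Ran*, 0.14 for *Rangap1* and 0.26 for *Rcc1*), and none passed an unadjusted p of 0.05 in the test on gene reads. *Rcc1* (chromosome 4 from 132331919 to 132353605), the exchange factor that charges Ran with GTP on chromatin, had 223, 299 and 292 gene reads in Fam102a KO, against 136, 231 and 272 in Wild-type. In CPM these were 16.0, 14.8 and 15.7 in Fam102a KO, against 11.5, 13.1 and 14.1 in Wild-type, with no overlap. The standard error of its log2 fold change was 0.132 (unadjusted p = 0.0818 and adjusted p = 0.924 from edgeR). With exon reads it was 0.31 (standard error 0.132, unadjusted p = 0.0411 and adjusted p = 0.700 from edgeR), and with exon reads of replicates 2 and 3 only it was 0.22 (unadjusted p = 0.201 from edgeR). *Ran* itself stood at 50.8 ± 5.08 RPKM in Fam102a KO and 42.8 ± 0.932 RPKM in Wild-type (SD, n = 3 each), with no overlap on this scale, while in CPM its libraries overlapped (111 to 140 in Fam102a KO and 115 to 124 in Wild-type). Of its exon reads 53.9% were unique, and *Gm13461* shares 14.1% of its windows. *Rangap1*, which switches Ran off in the cytoplasm, had 53.3, 53.7 and 39.9 CPM in Fam102a KO, against 37.8, 51.0 and 44.8 CPM in Wild-type.

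Among the scaffold nucleoporins, *Nup93* (ENSMUSG00000032939, chromosome 8 from 94214564 to 94317227) had the smallest p of the 50 genes. Nup93 is the linker of the inner ring that holds the channel nucleoporins in place. It had 694, 1017 and 883 gene reads in Fam102a KO, against 528, 717 and 784 in Wild-type, of which 95.9% were unique. In CPM these were 49.9, 50.2 and 47.3 in Fam102a KO, against 44.8, 40.7 and 40.6 in Wild-type, with every Fam102a KO library above every Wild-type library (p = 0.1 in a 2-sided exact permutation test, the least that 3 against 3 can give). The log2 fold change was 0.23 (standard error 0.096, unadjusted p = 0.0435 and adjusted p = 0.797 from edgeR), a 95% interval of 1.01 to 1.36 times Wild-type. DESeq2 gave the same log2 fold change with an unadjusted p of 0.101. The unadjusted p from edgeR was 0.0922 without Fam102a KO replicate 1, 0.104 without Fam102a KO replicate 2, 0.138 without Wild-type replicate 2 and 0.122 without Wild-type replicate 3. With the replicate number as a block it was 0.0364 (adjusted p = 0.556 from edgeR), and over all alternatives the adjusted p ran from 0.370 to 1.00. The other genes of the inner ring (*Nup35*, *Nup155*, *Nup188* and *Nup205*) had log2 fold changes from −0.01 to 0.04. *Nup93* was singled out by its p, and its 95% interval on the log2 scale (0.008 to 0.446) overlapped each of theirs. A difference between these genes was not tested.

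**Figure D5:**
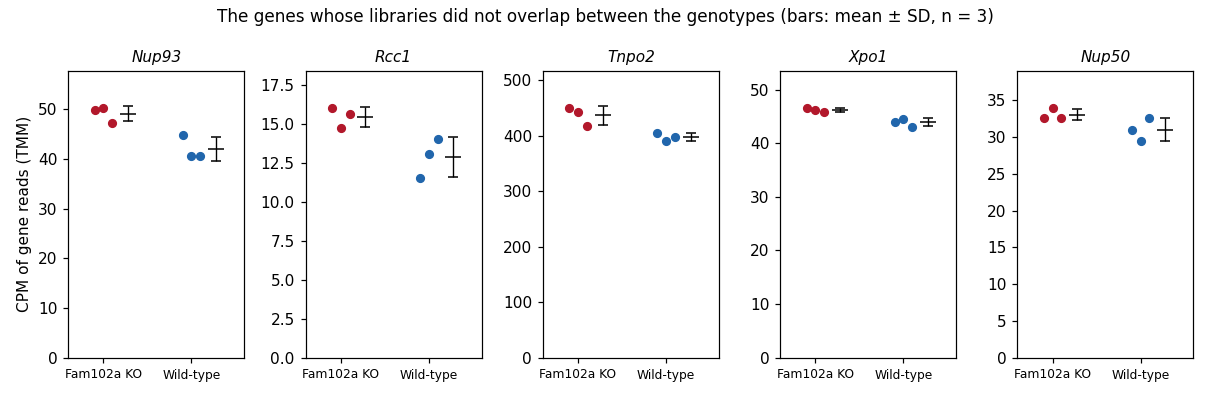
CPM of the 5 genes whose libraries did not overlap between the genotypes, Fam102a KO (red) left and Wild-type (blue) right, 1 point per library with the mean ± SD of 3, each panel from 0. *Nup93* lies at 47.3 to 50.2 CPM in Fam102a KO and 40.6 to 44.8 CPM in Wild-type, and *Tnpo2*, on all gene reads, at 417 to 449 CPM in Fam102a KO and 391 to 404 CPM in Wild-type, a difference that its unique reads do not show.

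In CPM, 5 of the 50 genes kept the genotypes apart, with no overlap of their libraries, all 5 higher in Fam102a KO (*Nup93*, *Rcc1*, *Tnpo2*, *Xpo1* and *Nup50*, of which *Tnpo2* had a log2 fold change of −0.02 with unique exon reads) and 0 lower. This is 10% of the 50, beside 5.48% of all genes tested that did not overlap and were higher and 5.61% that did not overlap and were lower, 11.1% in all. The share of the 50 genes that did not overlap was thus close to that of all genes. *Nup50*, a basket nucleoporin that helps importin alpha to let go of its cargo, was the closest of the 5, with 32.6, 33.9 and 32.7 CPM in Fam102a KO, against 31.0, 29.5 and 32.6 CPM in Wild-type.

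The remaining nucleoporins differed by less than their standard errors in most cases, and none passed an unadjusted p of 0.05 in edgeR. The 6 genes of the Y complex had log2 fold changes from −0.09 to 0.13 (3 above 0 and 3 below), with *Nup160* at 0.13 (standard error 0.135) and *Nup107*, the most abundant, at −0.05 (standard error 0.149), but 0.09 with exon reads. In the central channel *Nup62* had a log2 fold change of 0.05 and *Nup54* one of −0.04, and *Nup98*, a mobile nucleoporin on both sides of the pore, had one of 0.09 (standard error 0.114). The 3 genes of the cytoplasmic side were all below 0 in gene reads on the TMM scale, from −0.11 for *Ranbp2*, which builds the cytoplasmic filaments, to −0.01 for *Nup214*, which was 0.07 with exon reads, while in mean RPKM *Nup214* and *Nup88* were higher in Fam102a KO. *Ranbp2* had 89.1, 79.6 and 76.1 CPM in Fam102a KO, against 104, 81.0 and 80.2 CPM in Wild-type, so that replicate 1 was the highest in either genotype. In the basket *Tpr* stood at 85.7 ± 5.90 CPM in Fam102a KO and 90.6 ± 5.77 CPM in Wild-type and *Nup153* at 43.9 ± 7.84 CPM in Fam102a KO and 43.3 ± 1.98 CPM in Wild-type (SD, n = 3 each). In the membrane ring *Pom121* had a log2 fold change of −0.04 (standard error 0.168). *Nup210*, which is restricted to certain tissues, had 6, 34 and 18 gene reads in Fam102a KO, against 10, 37 and 27 in Wild-type, too few for a narrow interval (−1.66 to 0.70 on the log2 scale).

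A further list of 28 names, of other pore components, messenger RNA exporters and Ran-binding proteins, was read in the same fit. The tables hold 24 of these names and 23 had enough reads to be tested. Log2 fold changes were above 0 in 10 and below 0 in 13, and their median was −0.01. In edgeR 0 of them passed an unadjusted p of 0.05 (smallest unadjusted p = 0.107 from edgeR) and 0 an adjusted one, and DESeq2 placed 0 past either. In 16 of the 23 the 95% interval lay inside 1.5-fold. *Nxf1*, the main exporter of messenger RNA, had 40.3, 39.0 and 41.4 CPM in Fam102a KO, against 40.0, 41.0 and 43.4 CPM in Wild-type, with overlap between the genotypes. *Nutf2*, the carrier that brings Ran back into the nucleus, was uneven among the Fam102a KO libraries, with 22.5, 8.64 and 5.36 CPM, against 13.5, 13.0 and 15.1 CPM in Wild-type. Both were named after their values were seen.

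Several of these genes are known to be high in dividing cells, so markers of proliferation were read beside them. Of 12 such markers 0 passed an unadjusted p of 0.05 in edgeR, and they summed to 452 to 613 CPM in Fam102a KO and 477 to 508 CPM in Wild-type. Among them *Top2a*, a topoisomerase of dividing cells, stood at 270, 150 and 174 CPM in Fam102a KO, against 184, 167 and 166 CPM in Wild-type, so Fam102a KO replicate 1 was the highest library. Chondrocyte markers summed to 953 to 2080 CPM in Fam102a KO and 1860 to 2355 CPM in Wild-type, and endothelial markers to 8.35 to 90.6 CPM in Fam102a KO and 40.9 to 73.3 CPM in Wild-type, with none at an unadjusted p under 0.05 in edgeR. Skeletal muscle markers summed to 38.3 to 66.2 CPM in Fam102a KO and 23.9 to 37.6 CPM in Wild-type, and 1 of the 2 tested was higher at that threshold (*Des*, unadjusted p = 0.049 from edgeR). Schwann cell and neural crest markers summed to 8.52 to 31.7 CPM in Fam102a KO and 4.14 to 11.3 CPM in Wild-type, and 1 of the 2 tested was higher (*Sox10*, log2 fold change 2.14, unadjusted p = 0.0253 from edgeR). Adipocyte markers summed to 3.91 to 9.04 CPM in Fam102a KO and 3.16 to 6.28 CPM in Wild-type, with 0 of 1 tested at that threshold, and no list had a marker without a read in all 6 libraries. In bulk RNA, fewer cells of a type and less RNA per cell cannot be told apart, and the part of the cell makeup in the values above was not tested.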

How the data were processed

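Reads of 3 Fam102a KO and 3 Wild-type libraries (SMART-seq v4 cDNA, Ion Proton) had been mapped to mm10 and counted per gene by the authors with CLC Genomics Workbench. For mapping settings and annotation release the sources used here say nothing. The deposited tables hold counts of gene, exon, junction and intron reads, in total and uniquely placed, and the authors' RPKM, which were recomputed from exon reads, exon length and gene reads. For genes without exons the deposited RPKM rest on gene reads. The authors' fold changes were not used.

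Gene reads were tested with edgeR 4.0.16 in R 4.3.3 (filter at a minimum count of 10 and a minimum total of 15, TMM, robust quasi-likelihood test, Benjamini-Hochberg over all genes kept). Standard errors were taken as the log2 fold change, without its sign, divided by the root of F, and 95% intervals are approximate. The script was tested on simulated data. CPM are TMM-scaled. Alternatives were RLE factors, DESeq2 1.42.0, a floor of 10 reads for each library, no filter, unique gene reads, exon reads, unique exon reads, limma 3.58.1 on log2(RPKM + 0.1) and log2(RPKM + 1), the replicate block, leaving out each library, and replicates 2 and 3 only. Exon reads with the block, and exon reads of replicates 2 and 3, were added after the data were seen. Shared sequence was measured in 50-base windows of GENCODE M21 transcripts. Other versions were data.table (1.17.8), Python 3.11.15, numpy 2.4.6, pandas 2.3.3 and matplotlib 3.10.9. With 0 reads, up to 3 are allowed for, a limit of counting error only.

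In a check of the data, deviations from the genotype means of same-numbered libraries correlated with r = 0.23, 0.193 and 0.20 over 14619 genes. Libraries of unlike number gave r between −0.225 and 0.048. Deviations within a genotype sum to 0, so these lower values follow in part from the others and are no separate support. The replicate numbers may thus mark pairs, which 3 libraries of each genotype cannot settle. Named were all importin alpha genes and *Ran*, *Rangap1*, *Ranbp2* and *Rcc1*, genes at an unadjusted p under 0.05, and in each role the gene with the highest RPKM and that with the log2 fold change of largest size. Any other gene was named after its values were seen, as an example of its role or where the text turns on it. The genes and lists were chosen with earlier results of these data known.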

Additional observations from a re-analysis of the deposited data

How the results depend on the processing

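Under all 19 alternatives 0 of the 50 genes were called at an adjusted p under 0.05 (smallest 0.370, *Nup93* with exon reads and the replicate block). At an unadjusted p under 0.05 the number of genes higher in Fam102a KO, 1 in the report, was 0 with DESeq2, with no filter and with replicates 2 and 3 only (with gene or exon reads), 2 with exon reads, with unique exon reads, with limma on log2(RPKM + 0.1) or log2(RPKM + 1), and with exon reads and the replicate block, and 0 to 1 when 1 library was left out. Of all genes, 1.77 to 6.57% were higher at that level across the settings. With exon reads and unique exon reads, where 48 of the 50 genes were tested, it was 3.41 and 3.42%. The number of the 50 lower was 0 under each of them. With the replicate number as a block and gene reads the number higher stayed at 1, so the block changed no call. The median log2 fold change of the 50 genes was 0.163 and 0.136 with limma on log2(RPKM + 0.1) and log2(RPKM + 1), where the median of all genes was 0.112 and 0.0637. Among the other nuclear transport genes, 3 of 23 were higher at an unadjusted p under 0.05 with either limma setting (*Ddx19a*, *Ranbp1* and *Sec13*). Of all genes, 6.39 and 6.57% were higher there. With replicates 2 and 3 only, 1 was lower (*Nutf2*) with gene or exon reads, beside 2.39 and 2.54% of all genes. When 1 library was left out, 0 to 1 was lower, beside 1.98 to 4.62% of all genes. The RPKM of *Kpna2* over that of *Kpna6* moved with unique exon reads to 0.217 in Fam102a KO and 0.270 in Wild-type. Over 23 named genes, 427 single values were recomputed, of which 414 stayed on their side of an unadjusted p of 0.05, 8 of *Nup93* missed it, 5 of *Rcc1* passed it and 0 reversed past it. Why these values moved was not tested. Depth limits *Kpna7* and *Nup210*, and with 3 libraries against 3 an exact permutation test cannot go below p = 0.1.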
